A study of Mus musculus with 8 samples.

Results

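The odorant receptor (OR) genes examined were those of mouse chromosome 11 whose Olfr numbers lie in the ranges Olfr311 to Olfr332, Olfr376 to Olfr413 and Olfr1372 to Olfr1396. The ranges were chosen with earlier results of these data known. A transcript cluster is the set of probes that stands for 1 gene. Within the ranges, genes were taken by symbol if they had a transcript cluster of their own on the array. This rule gave 52 OR genes out of 1015 OR genes and 19928 genes measured, with 15 in Olfr1372 to Olfr1396, 16 in Olfr311 to Olfr332 and 21 in Olfr376 to Olfr413. All 52 lie on chromosome 11 in the RefSeq gene table, where the 3 ranges contain 64 symbols. Of the 12 symbols without a cluster of their own, 11 occur only in clusters shared between genes. RNA was taken from the olfactory mucosa at postnatal day 3, with 1 mouse per array. The 4 conditional knockouts (cKO) were 123Cre:Lhx2fl/fl mice. Of the 4 littermate controls, controls 1 and 2 were Lhx2fl/+ and controls 3 and 4 were 123Cre:Lhx2fl/+, so that every control carried 1 floxed allele. The colony had a mixed 129 and C57BL/6J background. Replicate numbers only name the arrays and pair nothing. In these mice Cre expression begins in immature olfactory sensory neurons (OSNs), recombination removes the first exons of Lhx2, and the deletion is partial.

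ORs are G-protein-coupled receptors that detect odorants on the cilia of OSNs. A maturing OSN settles on an OR allele and silences the rest, so that the mRNA of a given OR gene comes from the scattered OSNs that chose it. OR genes lie in clusters on most mouse chromosomes, and near neighbours often arose by duplication and share a family, given here by the older MOR names of the gene table. Lhx2 is a LIM-homeodomain transcription factor that binds sites with a TAAT core, and such sites, often beside sites for the Ebf factors, are known from OR promoters and from the enhancers that act on OR clusters.

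Along chromosome 11 the 52 genes formed 4 loci. Locus 1 held 13 genes, Olfr1382 to Olfr1396. Locus 2 held Olfr1377 and Olfr1378. Locus 3 was the 16 genes of Olfr311 to Olfr332, and locus 4 the 21 genes of Olfr376 to Olfr413. Between one locus and the next stood 26, 88 and 280 other protein-coding genes. The genes belonged to 16 MOR families. MOR135 was the most numerous, with 14 genes that all lie in locus 4, followed by MOR256 with 12 genes, 10 of them in locus 1.

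The array medians over all genes lay between 9.13 and 9.21 on the log2 scale, and pairs of arrays within a group had root mean square differences of 0.16 to 0.28. The targeted gene, Lhx2, averaged 12.90 in cKO mice and 13.14 in controls. Its cKO arrays were below all control arrays, but the difference of -0.24 did not pass (adjusted p = 0.337 by limma) and was -0.12 without cKO 2, and its cluster covers all exons, not only the deleted ones. Mature OSN markers read high in both groups and averaged 11.39 ± 0.25 in cKO mice and 12.04 ± 0.04 in controls (22 genes, SD over 4 arrays each). Of these 22, 7 fell and 0 rose in cKO mice, among them Omp, the olfactory marker protein of mature OSNs, with a difference of -0.97 (adjusted p = 0.0060). Their mean difference was -0.65, and -0.53 without cKO 2. Of 14 immature OSN markers 1 fell, with a mean difference of -0.16, and of -0.10 without cKO 2. Lists were also read for OSN progenitors, horizontal basal cells, sustentacular cells, microvillous cells, Bowman glands, ensheathing glia, respiratory ciliated cells, blood and macrophages. In these lists 0 of 51 genes were called by limma, beside 2.07% lower and 0.0602% higher over all genes. At an unadjusted p under 0.05, 2 were lower and 5 higher, beside 1966 lower and 1023 higher of all 19928 genes. The 2 lower were respiratory ciliated genes, and of the 5 higher 4 were OSN progenitor genes and 1 a microvillous gene. All 6 OSN progenitor and all 7 microvillous genes averaged higher in cKO mice, and both blood genes lower. List means lay between -0.32 (blood) and 0.13 (OSN progenitors). The array of cKO 2 stood apart from the other cKO arrays, and results that rest on it are given with and without it.

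Every one of the 52 OR genes on chromosome 11 averaged lower in cKO mice than in controls, and a part of them passed the test. At an adjusted p under 0.01, 19 of the 52 OR genes fell and 0 rose by limma. Without adjustment, 50 were lower and 0 higher at p under 0.05, against 9.87% of all genes and 92.2% of the other OR genes lower. Over all genes tested, 2.07% fell and 0.0602% rose, and over the 963 OR genes outside the 3 ranges 29.8% fell. All 52 differences between cKO and control lay below 0, with a mean of -0.76 and a median of -0.76, beside a median of -0.87 over the other OR genes and 0.03 over all genes. For 43 of the 52, or 82.7%, every cKO array was below every control array, against 8.43% of all genes and 80.2% of the other OR genes. The share that did not overlap was therefore close to that of OR genes elsewhere in the genome. At an adjusted p under 0.05, 34 of the 52, or 65.4%, fell, against 5.17% of all genes and 67% of the other OR genes, so that here too the share was close to that of OR genes elsewhere. In whole mucosa, fewer OSNs that express a gene and less of its mRNA per OSN cannot be told apart.

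Averaged over the 52 genes, the arrays of cKO mice 1 to 4 read 7.72, 7.15, 7.63 and 7.66, and those of controls 1 to 4 read 8.32, 8.36, 8.21 and 8.32. The cKO and control arrays did not overlap, and cKO 2 was the lowest. It was the lowest of all 8 arrays for 44 of the 52 genes and for all 19 genes that fell. Without cKO 2 the mean difference was -0.63, 51 of the 52 differences stayed below 0, and 25 genes fell, including all 19. The number of calls depended on the arrays included. It was 12 without cKO 1, 2 without cKO 3, 3 without cKO 4, and 2 without any 1 of the 4 controls. Of the 19 genes that fell, Olfr384 and Olfr313 passed in each of the 8 analyses that left out an array. The methods' t-test called 0 of the 52 at an adjusted p under 0.01, with 45 lower and 0 higher at an unadjusted p under 0.05. Here it was run on unscaled values, with Benjamini-Hochberg adjustment over all 19928 genes, and so is not the study's full procedure. The study scaled OR signals to mature OSN mRNAs, used its own stepwise false discovery rate, and reported decreases in most OR mRNAs of these mice.

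With all 8 arrays, most of the genes that fell lie in 1 of the 3 number ranges. In Olfr376 to Olfr413, 14 of 21 genes (66.7%) fell, against 3 of 15 (20%) in Olfr1372 to Olfr1396 and 2 of 16 (12.5%) in Olfr311 to Olfr332. The share was 29.8% over the OR genes outside the ranges and 2.07% over all genes. The genes that fell were Olfr376, Olfr380, Olfr381, Olfr384, Olfr385, Olfr390, Olfr392, Olfr393, Olfr394, Olfr395, Olfr398, Olfr399, Olfr410 and Olfr411 in the first of these ranges, Olfr1383, Olfr1387 and Olfr1396 in the next, and Olfr313 and Olfr319 in the last. These counts depended on the arrays. Without cKO 3 or any 1 of the controls, 1 gene fell in Olfr376 to Olfr413, 0 in Olfr1372 to Olfr1396 and 1 in Olfr311 to Olfr332, so that the calls were no longer concentrated in a range. Without cKO 4 the counts were 2, 0 and 1, without cKO 1 they were 8, 2 and 2, and without cKO 2 they were 17, 5 and 3. The mean difference was -1.05 in Olfr376 to Olfr413, -0.56 in Olfr1372 to Olfr1396 and -0.57 in Olfr311 to Olfr332. The genes of Olfr376 to Olfr413 averaged 7.60, 6.88, 7.51 and 7.58 in cKO mice 1 to 4, and 8.47, 8.50, 8.34 and 8.44 in controls 1 to 4. Those of Olfr311 to Olfr332 averaged 7.76, 7.30, 7.65 and 7.68 in cKO mice, and 8.19, 8.23, 8.05 and 8.21 in controls. Those of Olfr1372 to Olfr1396 averaged 7.84, 7.39, 7.76 and 7.76 in cKO mice, and 8.24, 8.31, 8.20 and 8.25 in controls. In each range the cKO and control arrays did not overlap. Taking the mean of Olfr376 to Olfr413 minus that of Olfr311 to Olfr332 on each array gave -0.21 ± 0.15 in cKO mice and 0.27 ± 0.02 in controls (SD, n = 4 each), and these values did not overlap between the groups. Their difference was -0.47, and -0.40 without cKO 2. The same quantity against Olfr1372 to Olfr1396 differed by -0.48, and that of Olfr1372 to Olfr1396 against Olfr311 to Olfr332 by 0.01. The ranges were compared as a description, without a test.

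**Figure D1:**
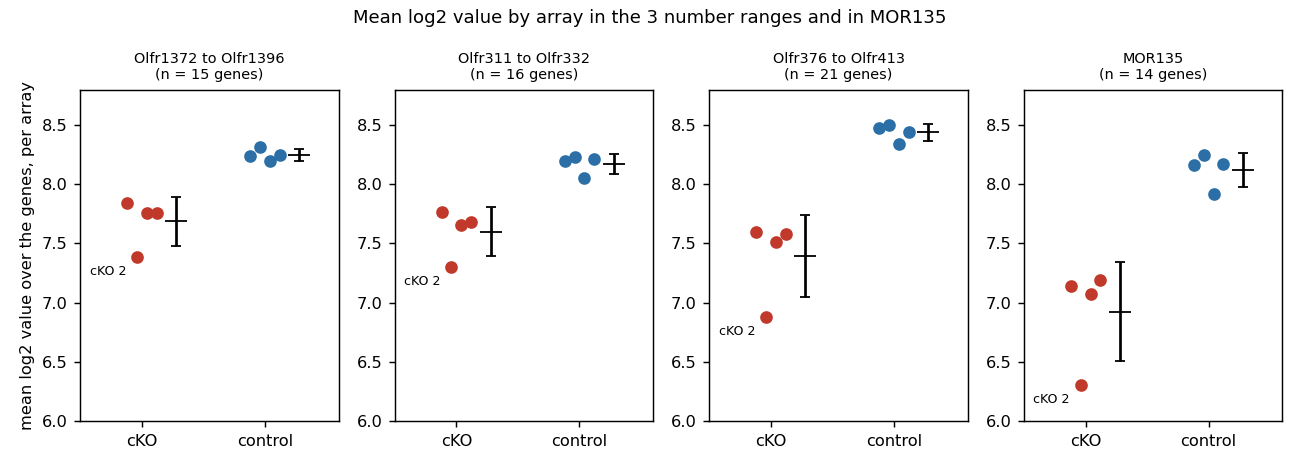
Mean log2 value over the genes of each number range, and of the MOR135 family, on each array, with the 4 cKO arrays left of the 4 control arrays and the group mean ± SD beside the points. The cKO arrays lie below the control arrays in all 4 panels, cKO 2 is the lowest point of each, and the gap is -1.05 in Olfr376 to Olfr413 and -1.20 in MOR135, against -0.56 and -0.57 in the other ranges.

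Within Olfr376 to Olfr413 the MOR135 genes averaged the most negative difference. The family was singled out after the values were seen. Of its 14 genes 10, or 71.4%, fell with all 8 arrays, against 29.8% of the OR genes outside the ranges. Between 1 and 13 fell with an array left out. The lowest count, 1, came without cKO 3 and without any 1 control, and the highest without cKO 2. In 13 genes, or 92.9%, against 80.2% of the OR genes outside the ranges, every cKO array was below every control array, and the mean difference was -1.20. Averaged over the genes, the signal was 54.7% lower in cKO mice. Without cKO 2 the mean difference was -0.99. The other 7 genes of the same range, from MOR255, MOR157 and MOR127, had a mean difference of -0.74, and 4 of them fell. Among the remaining 38 of the 52 genes 9 fell, and the mean difference was -0.60. MOR135 averaged 7.14, 6.30, 7.07 and 7.19 in cKO mice 1 to 4, and 8.16, 8.24, 7.92 and 8.17 in controls 1 to 4. The 2 sets of arrays did not overlap. With cKO 2 left out, the arrays of cKO mice still lay below all controls. MOR135 minus the other 7 genes was -1.40 ± 0.23 in cKO mice and -0.94 ± 0.23 in controls (SD over arrays). These values overlapped between the groups through cKO 4 and control 3, and differed by -0.46, or by -0.36 without cKO 2. MOR135 minus MOR255 and MOR135 minus the OR genes outside the ranges overlapped as well, with differences of -0.51 and -0.30.

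**Figure D2:**
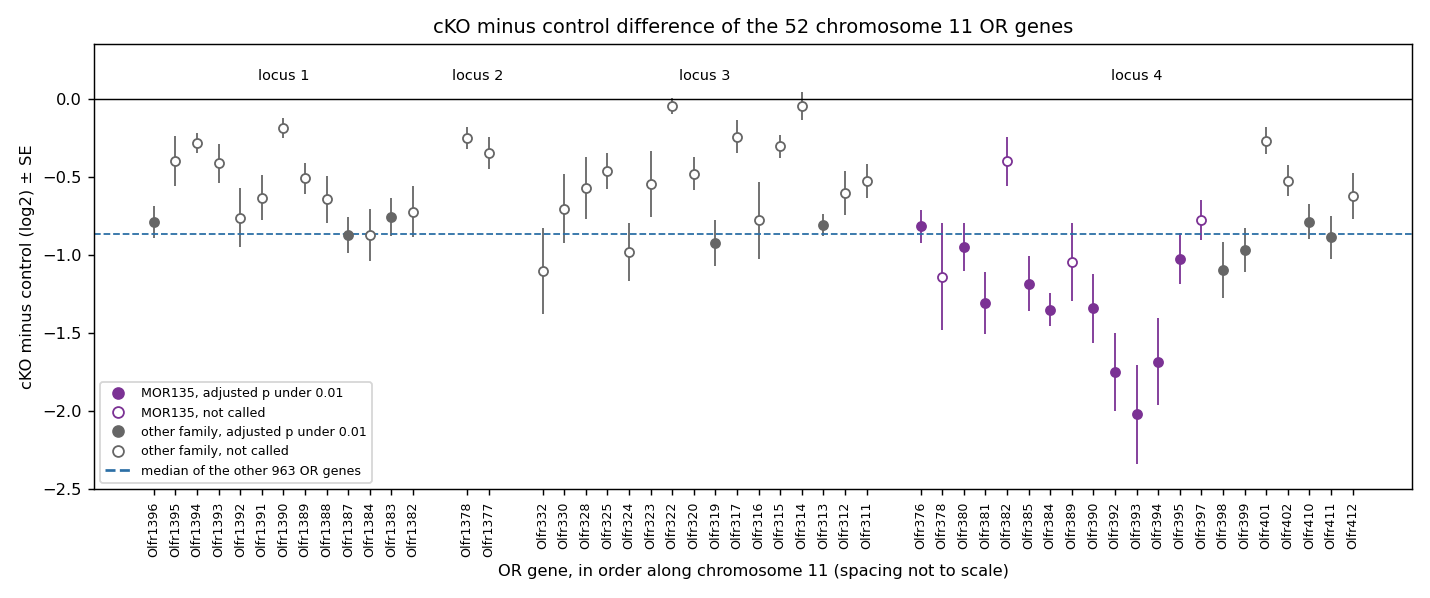
Difference between cKO and control in log2 units, with its standard error, for each of the 52 OR genes in their order along chromosome 11, with spacing not to scale. All points lie below 0, filled points mark adjusted p under 0.01, and the MOR135 genes of locus 4 reach -2.02 at Olfr393, against a median of -0.87 for the other 963 OR genes (dashed line).

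Olfr393 (MOR135-7) showed the most negative difference of the 52 genes. It read 8.33, 6.85, 8.28 and 8.38 in cKO mice 1 to 4, and 9.96, 10.11, 9.78 and 10.07 in controls 1 to 4. The highest cKO array was 1.40 log2 units below the lowest control array. The difference of -2.02 (SE 0.31, adjusted p = 0.0077) left 24.6% of the control signal and was the seventh most negative of all OR genes measured. Its neighbours on either side, Olfr392 (MOR135-9) and Olfr394 (MOR135-8), came next. Olfr392 read 7.44, 6.23, 7.05 and 7.24 in cKO mice and 8.55, 9.04, 8.45 and 8.91 in controls, and its difference was -1.75 (SE 0.25, adjusted p = 0.0061). Olfr394 read 8.07, 6.71, 7.76 and 7.99 in cKO mice and 9.39, 9.60, 9.06 and 9.20 in controls, and its difference was -1.68 (SE 0.28, adjusted p = 0.0098), close to the threshold. Among the 100 most negative differences of all 1015 OR genes, the 52 held a smaller share than among the 1015 as a whole. The only ones of the 52 there were these 3 adjacent genes. In all 3 the groups did not overlap and cKO 2 was the lowest array. Without cKO 2 their differences were -1.65, -1.50 and -1.38.

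Olfr384 (MOR135-5) had the smallest p of the 52 genes. It read 6.33, 5.99, 6.32 and 6.49 in cKO mice, and 7.66, 7.76, 7.46 and 7.65 in controls. The groups stood 0.97 apart, and the difference was -1.35 (SE 0.11, adjusted p = 0.0010), or 39.2% of the control signal. It passed whichever array was left out, with adjusted p-values between 0.0001 and 0.0057. Olfr390 read 7.47, 6.53, 7.48 and 7.41 in cKO mice, and 8.70, 8.78, 8.18 and 8.60 in controls, with a difference of -1.34 (SE 0.22) and an adjusted p just inside the threshold. Its cKO 2 array stood far below the other 3. Olfr381 and Olfr385 also fell, with differences of -1.31 and -1.18. Olfr376, at the start of the locus, fell by 0.82 (SE 0.11, adjusted p = 0.0045).

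Of the 14 MOR135 genes, 4 did not pass. Olfr382 read 5.37, 5.48, 5.67 and 6.06 in cKO mice, and 6.30, 5.87, 5.87 and 6.14 in controls. The groups overlapped, and its difference of -0.40 (SE 0.16) did not pass (adjusted p = 0.26). Its control mean of 6.04 was near 5.43, the median of 162 vomeronasal receptor genes in controls, a level that stands here for background, and near background a log2 value understates a change. All 52 genes averaged above that level in controls. Olfr378 and Olfr389 had differences of -1.14 and -1.05 and did not pass (adjusted p = 0.11 and 0.046), with cKO 2 at 5.95 and 6.69, below the other cKO arrays. Without cKO 2 the differences were -0.75 and -0.76 and both passed. Olfr397 stood just outside the threshold with a difference of -0.78 (adjusted p = 0.010). Across the 52 genes the level in controls and the difference had a Pearson r of -0.36, and across the other 963 OR genes one of -0.41, over genes that share the same 8 arrays.

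**Figure D3:**
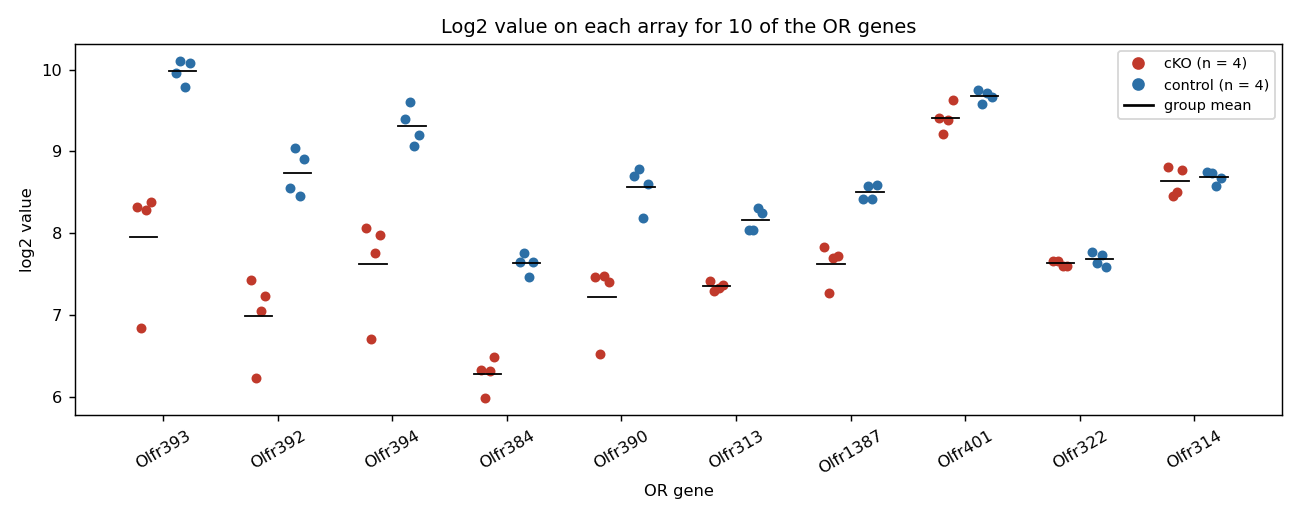
Log2 value on each array for 10 of the OR genes, with the 4 cKO arrays left of the 4 control arrays of the same gene and group means as bars. The groups are apart in the first 7 genes, by 1.40 for Olfr393, and overlap in Olfr401, Olfr322 and Olfr314.

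The RefSeq table places 3 further MOR135 genes on chromosome 11 whose numbers fall outside the ranges, Olfr1, Olfr20 and Olfr23. They were looked at after the values of the family were seen. Olfr1 read 7.60, 7.05, 7.39 and 7.63 in cKO mice, and 8.59, 8.77, 8.43 and 8.44 in controls. Olfr20 read 7.62, 7.30, 7.56 and 7.73 in cKO mice, and 8.33, 8.25, 8.18 and 8.30 in controls. Both fell, with differences of -1.14 (adjusted p = 0.0034) and -0.71 (adjusted p = 0.0041). Olfr23 had a difference of -1.42 that did not pass (adjusted p = 0.023), with cKO 2 at 5.77 against 6.86 to 7.22 in the other cKO mice. In all 3 the cKO arrays lay below the controls, as in 80.2% of the OR genes outside the ranges. The mean difference of these 3 genes, -1.09, was near that of the 14.

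Sequences upstream of these genes are shown because Lhx2 is a homeodomain factor and the MOR135 genes are close relatives. The RefSeq promoter table (GRCm38.p6) holds a window, 250 bases before to 50 bases after the annotated start, for 44 of the 52 genes. In 30 of the 44 windows the annotated start is the ATG start codon, so that the window ends inside the coding sequence and does not surround a mapped transcription start. Windows were searched on both strands for the letters TAATTA and for TAATGA, which hold the homeodomain core, and TCCCNNGGG, an Ebf-type site. TAATGA occurred in 11 of the 12 MOR135 windows (91.7%), in 5 of the 32 other windows of the ranges (15.6%), in 28.4% of the 900 windows of OR genes outside the ranges and in 9.78% of all 32851 windows. TAATTA occurred in 3 of the 12 MOR135 windows, in 18.7% of the outside OR windows and in 5.29% of all windows. TCCCNNGGG occurred in 2 of the 44 windows, those of Olfr330 and Olfr398, in 2.44% of the outside OR windows and in 6.56% of all windows. Of the 20 TAATGA matches of MOR135, 17 began before the annotated start. The windows of a family descend from shared ancestors, so they are not independent examples. The difference had a median of -0.95 over the 19 genes with TAATTA or TAATGA in the window and of -0.64 over the 25 without. Of the 19, 11 belong to MOR135, with a median of -1.18, and the median of the 8 others was -0.68, close to that of the genes without. These matches describe letters, not bound sites.

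The windows of Olfr393, the gene with the most negative difference, and of Olfr382, the MOR135 gene with the difference nearest 0, are set side by side. They are 80.6% identical over 278 aligned bases. Olfr384, the gene with the smallest p, is shown with them. They lie at chr11:73848074-73848373 (minus strand), chr11:73517148-73517447 (minus strand) and chr11:73602332-73602631 (plus strand), each printed along its gene, with the matches to TAATTA or to TAATGA on either strand in capitals.
Olfr393: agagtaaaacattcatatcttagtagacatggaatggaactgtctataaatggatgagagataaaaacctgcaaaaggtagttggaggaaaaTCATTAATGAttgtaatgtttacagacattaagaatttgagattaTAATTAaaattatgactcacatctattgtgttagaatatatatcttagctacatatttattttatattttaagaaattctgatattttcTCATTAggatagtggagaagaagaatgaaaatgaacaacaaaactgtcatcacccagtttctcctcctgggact
Olfr382: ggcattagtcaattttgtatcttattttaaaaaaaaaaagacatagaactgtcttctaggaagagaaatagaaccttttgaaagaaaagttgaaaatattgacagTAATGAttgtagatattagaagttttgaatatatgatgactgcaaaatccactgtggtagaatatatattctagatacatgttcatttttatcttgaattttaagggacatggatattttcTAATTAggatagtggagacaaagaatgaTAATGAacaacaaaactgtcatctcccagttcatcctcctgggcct
Olfr384: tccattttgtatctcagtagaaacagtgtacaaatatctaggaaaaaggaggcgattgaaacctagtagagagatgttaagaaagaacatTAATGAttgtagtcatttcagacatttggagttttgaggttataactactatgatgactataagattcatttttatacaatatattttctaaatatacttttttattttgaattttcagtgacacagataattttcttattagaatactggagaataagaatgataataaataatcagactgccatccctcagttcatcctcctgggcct

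In Olfr382 and Olfr384 a TAATGA begins 145 and 160 bases before the start codon, and Olfr393 has overlapping matches that begin 158 and 154 bases before it. The letters stand in the window of Olfr382, with a difference of -0.40, as well as in that of Olfr393, with -2.02. Olfr382 read near background, where a log2 value understates a change, and whether the letters bear on the difference was not tested.

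Olfr392 and Olfr389 are among the 14 genes whose window surrounds an annotated start upstream of the coding sequence. The windows are 87.5% identical over 255 aligned bases, while the differences were -1.75 and -1.05. They lie at chr11:73816828-73817127 (minus strand) and chr11:73780540-73780839 (minus strand), with the TAATGA letters in capitals.
Olfr392: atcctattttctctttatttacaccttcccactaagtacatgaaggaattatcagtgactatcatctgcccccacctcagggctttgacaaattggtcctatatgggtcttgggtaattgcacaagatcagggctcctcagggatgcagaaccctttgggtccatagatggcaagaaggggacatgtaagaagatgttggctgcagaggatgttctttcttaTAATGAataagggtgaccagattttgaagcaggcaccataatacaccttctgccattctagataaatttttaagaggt
Olfr389: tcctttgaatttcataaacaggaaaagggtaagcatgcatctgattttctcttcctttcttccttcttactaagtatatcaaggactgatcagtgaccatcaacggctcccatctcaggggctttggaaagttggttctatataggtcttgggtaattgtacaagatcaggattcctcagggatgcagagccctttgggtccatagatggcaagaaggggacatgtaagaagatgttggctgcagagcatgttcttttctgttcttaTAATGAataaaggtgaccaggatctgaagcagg

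Olfr322 and Olfr317 were among the genes with differences closest to 0, and their windows were the most alike among pairs that aligned over at least 200 bases, at 95% identity over 240 aligned bases. They lie at chr11:58665311-58665610 (plus strand) and chr11:58733174-58733473 (minus strand), and hold none of the 3 motifs in these letters.
Olfr322: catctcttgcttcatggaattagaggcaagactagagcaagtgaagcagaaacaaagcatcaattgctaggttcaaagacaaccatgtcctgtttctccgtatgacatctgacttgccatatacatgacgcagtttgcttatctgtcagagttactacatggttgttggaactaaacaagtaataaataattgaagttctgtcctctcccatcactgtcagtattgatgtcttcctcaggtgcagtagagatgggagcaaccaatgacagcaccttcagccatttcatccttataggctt
Olfr317: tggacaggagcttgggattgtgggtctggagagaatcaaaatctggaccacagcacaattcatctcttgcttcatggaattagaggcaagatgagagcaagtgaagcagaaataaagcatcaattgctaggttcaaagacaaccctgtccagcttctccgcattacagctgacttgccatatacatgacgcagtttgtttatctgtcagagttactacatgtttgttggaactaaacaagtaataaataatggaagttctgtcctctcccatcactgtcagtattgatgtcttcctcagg

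Olfr322 read 7.67, 7.67, 7.61 and 7.60 in cKO mice, and 7.77, 7.64, 7.74 and 7.59 in controls. The groups overlapped, the difference was -0.05 (SE 0.05, adjusted p = 0.75), and cKO 2 did not stand apart. Olfr317 read 7.55, 7.40, 7.50 and 7.56 in cKO mice, and 7.61, 7.74, 8.08 and 7.56 in controls, with a difference of -0.24 (SE 0.11, adjusted p = 0.33). Control 3 was the highest array, and without it the difference was -0.13. Both belong to MOR256. Of the 12 MOR256 genes 2 (16.7%) fell, Olfr1383 and Olfr1387, beside 29.8% of the OR genes outside the ranges and 2.07% of all genes. The family's mean difference was -0.56. The 10 MOR256 genes of locus 1 averaged -0.64. The 30 MOR256 genes outside the ranges averaged -0.73, and 7 of them (23.3%) fell.

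In Olfr311 to Olfr332 the only genes that fell were Olfr313 and Olfr319. Olfr313 (MOR222-2) ranked second by p, after Olfr384. It read 7.42, 7.29, 7.33 and 7.38 in cKO mice, and 8.04, 8.04, 8.30 and 8.25 in controls. The groups stood 0.62 apart, the difference was -0.81 (SE 0.07, adjusted p = 0.0013) and it passed whichever array was left out. The most negative difference of the range belonged to Olfr332, which read 9.08, 7.68, 8.79 and 8.96 in cKO mice, and 9.84, 9.76, 9.50 and 9.82 in controls. Its groups did not overlap, and cKO 2 was the lowest. The difference of -1.10 (SE 0.28) did not pass (adjusted p = 0.056). Without cKO 2 it was -0.79 and passed. Olfr324 (difference -0.98, adjusted p = 0.016) did not pass either, and Olfr319 fell by 0.92 (adjusted p = 0.0081). Olfr314 read 8.81, 8.46, 8.51 and 8.77 in cKO mice, and 8.75, 8.74, 8.57 and 8.67 in controls. It overlapped fully, with a difference of -0.05 (SE 0.09, adjusted p = 0.87) that was 0.01 without cKO 2.

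In Olfr1372 to Olfr1396 the genes that fell were Olfr1387, Olfr1396 and Olfr1383. Olfr1387 read 7.83, 7.27, 7.69 and 7.72 in cKO mice, and 8.42, 8.58, 8.42 and 8.59 in controls. The groups stood 0.58 apart, and the difference was -0.87 (SE 0.12, adjusted p = 0.0047). Olfr1384, a few genes away, had the same difference of -0.87 with a wider spread (SE 0.17, adjusted p = 0.018), and passed without cKO 2. Olfr1396, at the outer end of locus 1, fell by 0.79 (adjusted p = 0.0047). Olfr1395, next to it, had one of the 4 highest control values of the 52 clusters, values that depend on the probes as well as on the mRNA. It read 9.61, 8.83, 9.49 and 9.63 in cKO mice, and 9.81, 9.81, 9.74 and 9.79 in controls. The groups did not overlap, but the difference of -0.40 did not pass (adjusted p = 0.28) and was -0.21 without cKO 2. Olfr1390, with a difference of -0.19, was closest to 0 in the range, and its groups overlapped. The pair in locus 2, Olfr1377 and Olfr1378, had differences of -0.35 and -0.25, and neither passed.

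At the far end of locus 4 the differences of the 5 MOR255 genes ranged from -0.97 to -0.27. Olfr411, also among the 4 highest control values, read 9.67, 8.97, 9.46 and 9.32 in cKO mice, and 10.23, 10.22, 10.42 and 10.10 in controls. The groups did not overlap, and the difference was -0.89 (SE 0.14, adjusted p = 0.0077). Olfr399 and Olfr410 fell by 0.97 and 0.79. Olfr401 read 9.41, 9.21, 9.39 and 9.63 in cKO mice, and 9.75, 9.58, 9.71 and 9.66 in controls. Its groups overlapped through cKO 4, and the difference of -0.27 (SE 0.08) was the closest to 0 in Olfr376 to Olfr413 and did not pass (adjusted p = 0.14). Olfr402, whose upstream window is 88.7% identical to that of Olfr401, had a difference of -0.52 that did not pass (adjusted p = 0.016). Olfr398, the MOR157 gene of the locus, fell by 1.10 (SE 0.18, adjusted p = 0.0093).

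Neighbouring genes were set beside each other along the loci. Over the 48 pairs of next neighbours the Pearson r between their differences was 0.58. This r pools loci 1 to 4, whose mean differences were -0.60, -0.30, -0.57 and -1.05, and their part in it was not tested. The median gap between neighbours was 0.30, against 0.36 between other pairs of the same locus. Where both neighbours belonged to 1 MOR family the median gap was 0.26 (33 pairs), and where they did not it was 0.43 (15 pairs). These pairs share genes and arrays, and related sequences may share probe signal, whose part in the result was not tested. Of the 52 genes 16 also occur in clusters shared by several genes. Their differences had a mean of -0.87 and a median of -0.74, beside a mean of -0.71 and a median of -0.77 for the 36 that occur in no shared cluster, so that mean and median order these sets differently. Of the 16 genes 6 (37.5%) fell, and of the 36 genes 13 (36.1%), beside 29.8% of the OR genes outside the ranges. Position and family go together in these loci and cannot be told apart.

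Genes in the same stretches of chromosome that encode no OR had differences near 0. Of 48 such genes, 8 inside the loci and the rest among the 5 nearest on each side, 0 fell and 0 rose by limma at an adjusted p under 0.01. In the whole set of genes measured, OR genes included, 2.07% fell and 0.0602% rose. With shares this small, 0 calls in a set of 48 say little. At an unadjusted p under 0.05, 0 of the 48 were lower and 1 was higher, 9230009I02Rik, with a difference of 0.22. In the whole set 9.87% were lower at that level. The median difference of the 48 was 0.03, within a range of -0.11 to 0.22.

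Because 7 of the mature OSN markers fell as well, the OR genes were also measured against them. In the study OR signals were scaled by a published set of mature OSN mRNAs. That set was not used here, and how far it moved on these arrays was not computed. The study itself reported a small average decrease of that set in these mice, smaller than the shifts subtracted here. In its place -0.65, the mean over the 22 markers above, was subtracted from the difference of each OR gene. The 22 are a short list, and all counts and signs that follow depend on the size of this shift. The 52 genes then averaged -0.11, with 29 below 0 and 23 above. Relative to the markers 0 of the 52 were lower and 1 was higher at an adjusted p under 0.01, beside 0.104% lower and 0.104% higher among the OR genes outside the ranges. At an unadjusted p under 0.05, 10 were lower and 9 higher, and the methods' t-test gave 7 lower and 9 higher at that level and called 0. The gene that was higher was Olfr322, at 0.60 above the markers (adjusted p = 0.0042), which follows from a raw difference near 0. When the marker mean was subtracted array by array, Olfr322 no longer passed (adjusted p = 0.040), and Olfr384 was lower at -0.70 (adjusted p = 0.0055), beside 4.78% lower among the OR genes outside the ranges. At an unadjusted p under 0.05, 18 were then lower and 10 higher. Olfr384 had an adjusted p of 0.022 with 1 constant subtracted. Olfr393, at -1.37 relative to the markers, did not pass (adjusted p = 0.082). A smaller shift of -0.32, midway between 0 and the marker mean and chosen after the values were seen, left 44 of the 52 differences below 0 with a mean of -0.44. Olfr384 was then lower (-1.03, adjusted p = 0.0068) and 0 were higher, beside 2.39% lower among the OR genes outside the ranges, with 27 lower and 2 higher at an unadjusted p under 0.05.

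Relative to the 22 markers the mean differences of the ranges differed in sign, as they do for any shift between -0.57 and -1.05 and not for a smaller one. Olfr376 to Olfr413 averaged -0.40, with 17 of 21 genes below 0, and MOR135 averaged -0.55, with 13 of 14 below 0. Olfr311 to Olfr332 averaged 0.08 and Olfr1372 to Olfr1396 averaged 0.08, and in each 6 genes were below 0. With the shift of -0.32 all 3 means were below 0, at -0.72, -0.25 and -0.24. The other OR genes averaged -0.25, with 661 of 963 below 0. Array by array, MOR135 minus the marker mean was -4.43, -4.72, -4.44 and -4.28 in cKO mice, and -3.83, -3.79, -4.14 and -3.91 in controls, on a scale whose size reflects probe brightness and whose difference between groups is -0.55. These arrays did not overlap, and cKO 2 was again the lowest. In Olfr311 to Olfr332 the arrays ranged from -3.86 to -3.73 in cKO mice and from -4.01 to -3.80 in controls, and in Olfr1372 to Olfr1396 from -3.76 to -3.64 in cKO mice and from -3.86 to -3.72 in controls. In both ranges the groups overlapped. For all 52 genes the same quantity was -3.84, -3.87, -3.89 and -3.81 in cKO mice, and -3.67, -3.67, -3.85 and -3.77 in controls. Here the groups overlapped, and cKO 2 lay inside the range of the other cKO mice.

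**Figure D4:**
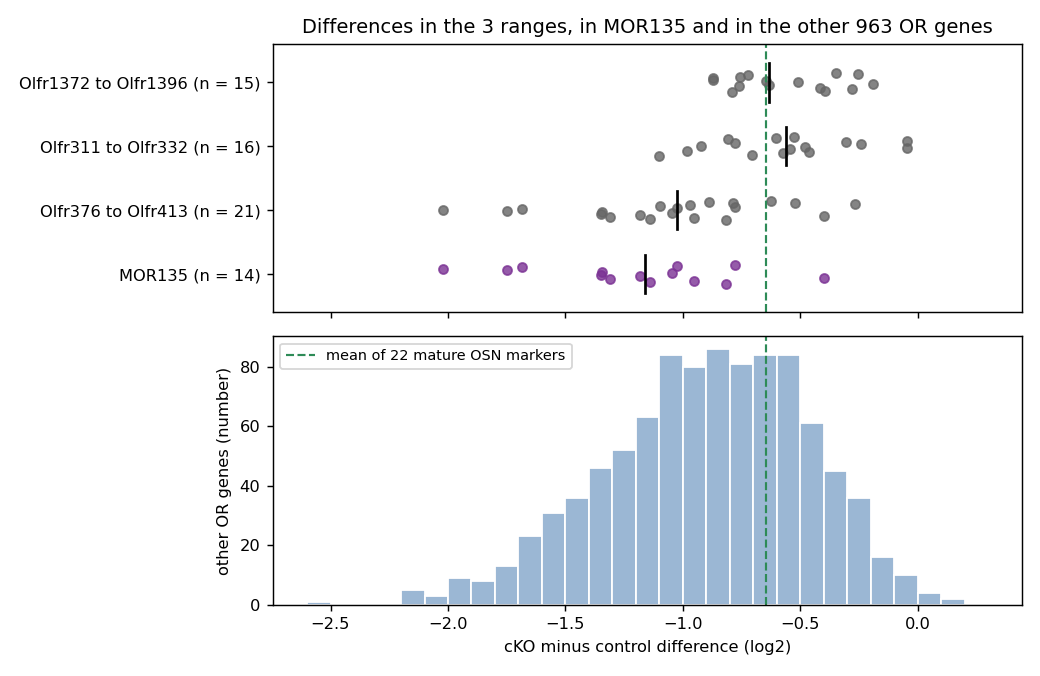
Differences between cKO and control in log2 units for the genes of each number range and of MOR135 (points, with medians as bars), above a histogram of the other 963 OR genes. The medians of -1.16 in MOR135 and -1.02 in Olfr376 to Olfr413 lie left of the mean of the 22 mature OSN markers at -0.65 (dashed line), and those of the other ranges, -0.63 and -0.56, lie close to it.

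The 2 control genotypes, with 2 arrays each, were also compared. Both carry 1 floxed allele and they differ by 123Cre, so Cre itself and recombination of 1 allele cannot be told apart. With so few arrays, 0 calls say little. Between the 123Cre:Lhx2fl/+ and the Lhx2fl/+ controls 0 of the 52 genes were called by limma at an adjusted p under 0.01, beside 0% of all genes, and 0 at 0.05. At an unadjusted p under 0.05, 2 were lower and 2 were higher in 123Cre:Lhx2fl/+ controls, together 7.69% of the 52, beside 7.78% of all genes. The mean difference over the 52 genes was -0.08, within a range of -0.54 to 0.34. The sample titles carry a letter, and among the controls letter and genotype coincide and cannot be told apart. Within letter A, with 3 cKO and 2 control arrays, the mean difference over the 52 genes was -0.59. Within letter B, which has only cKO 2 and controls 1 and 2, it was -1.19. MOR135 was -0.91 within letter A and -1.90 within letter B.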

How the data were processed

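Olfactory mucosa RNA of 4 cKO and 4 control mice was hybridized to GeneChip Mouse Gene ST arrays. The authors deposited log2 values for 28312 transcript clusters, made with Affymetrix Expression Console per the submitters' processing notes. The version, background correction and summarization: not given in the sources used here. Clusters were named from the platform annotation, the 1605 with several symbols were left out, and the cluster with the highest mean was kept per gene. The 52 genes and all lists were chosen with earlier results of these data known.

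Differences are cKO minus control in log2 units, tested with limma 3.58.1 (R 4.3.3), two-sided, with Benjamini-Hochberg adjustment over 19928 genes at an adjusted p under 0.01. The step was tested on simulated data. Named genes are the 8 most negative called, the 4 smallest p, the 4 highest control means, the 4 differences closest to 0, the extremes of each range, those next to the threshold and Olfr401, which the study names. All other OR genes were named after their values were seen. Alternatives were the methods' t-test, the threshold, eBayes settings, normalization, centring, a filter on dim genes, array weights, the title letter as block, each control genotype alone, every cluster kept and each array left out. The number of arrays limits the precision, with a median standard error of 0.14 over the 52 genes. The p-values measure the spread between these mice, whose litters the labels do not give.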

Additional observations from a re-analysis of the deposited data

Results flagged for a closer look

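In 64 groups of 4 arrays, 8 had an array whose gap to its nearest neighbour exceeded Dixon's critical share of the group's range, and in all 8 it was cKO 2, the lowest. Chance flags about 1 in 20 groups, and these groups share the same 4 cKO arrays. Among single genes, cKO 2 read 6.85 for Olfr393, 6.53 for Olfr390 and 8.83 for Olfr1395, where the other cKO mice read at least 8.28, 7.41 and 9.49. Among means it read 7.15 over the 52 genes, 6.88 over Olfr376 to Olfr413 and 6.30 over MOR135. It also stood apart for Lhx2, at 12.55, and for Omp, at 11.997. No control array was set apart in this way. The mean difference over the 52 genes was -0.63 without cKO 2 and -0.76 with it.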

How the results depend on the processing

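The mean differences of the 52 genes and of the 3 ranges moved by less than the SD of the 4 cKO arrays under several settings. These were quantile normalization, centring, array weights (added after the data were seen) and the title letter as a block. They also included either control genotype alone, genes above background only and each array left out. The SD of the cKO arrays, 0.26 over the 52 genes, includes cKO 2, and that of the controls was 0.07. Without cKO 2 the means moved by more than the SD of the controls, to -0.63 over the 52 genes and -0.87 in Olfr376 to Olfr413. The means were not recomputed for the other settings. The number of genes that fell was 19, and 34 at an adjusted p under 0.05. It was 0 with the methods' t-test, 0 with only the Lhx2fl/+ controls and 0 with only the 123Cre:Lhx2fl/+ controls, each of which leaves 2 control arrays. At an unadjusted p under 0.05 these 3 settings had 45, 44 and 41 genes lower and 0 higher. It lay between 2 and 25 when 1 array was left out, and between 14 and 20 under the other settings, with 14 where genes below log2 7.52 were left out, which keeps 35 of the 52 genes. The number that rose was 0 under every setting. Relative to the mature OSN markers, the number lower was 1 at an adjusted p under 0.05, 1 array by array, 1 with the shift of -0.32 and 0 to 2 with 1 array left out, and the number higher was 5, 0, 0 and 0 to 1, and 0 with the methods' t-test. Olfr314 changed sign, to 0.0077 with quantile normalization and 0.017 with only the 123Cre:Lhx2fl/+ controls, lay between -0.103 and 0.0133 with 1 array left out, the highest without cKO 2, and was not called in any setting. With the title letter as a block 20 genes fell, 15 of them among the 19. The family of MOR135, added after the data were seen, had a mean difference of -1.18 with quantile normalization and -1.27 with the title letter as a block. No paired analysis was possible because the replicate numbers follow accession order. The cause of these changes in count was not tested. Values of dim clusters understate a change.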

Other observations

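Array probes shared by several genes of the ranges gave 13 further transcript clusters, which were left out of the tests. All 13 had a difference below 0, with a median of -1.03 within a range of -1.36 to -0.38. In 12 every cKO array was below every control array, beside 80.2% of the OR genes outside the ranges and 8.43% of all genes. The most negative was the cluster that joins Olfr20, Olfr384, Olfr390, Olfr391, Olfr393, Olfr394 and Olfr395. It read 9.26, 8.02, 9.01 and 9.26 in cKO mice, and 10.37, 10.37, 10.09 and 10.16 in controls. The cluster closest to 0 joins Olfr1377, Olfr1378 and Olfr51, and its groups overlapped. The genes Olfr51, Olfr391 and Olfr20 are named here only as parts of these clusters.

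Of 22 genes with a known part in OR choice or OR surface transport 1 (4.55%) fell, beside 2.07% of all genes. It was Adcy3, the adenylyl cyclase of OSN cilia, with a difference of -0.86 (adjusted p = 0.0027 by limma). Ebf4, an Ebf transcription factor (difference -0.46, adjusted p = 0.019), Rtp1, a chaperone of OR transport (-0.37, adjusted p = 0.033), and Trim66 (-0.34, adjusted p = 0.094) did not pass. Adcy3 and Rtp1 are also in the mature OSN list.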
